A study of Homo sapiens with 12 samples.

Results

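Lysosomal acidification was blocked with bafilomycin A1 in nutrient-starved Caco-2 cells, an established epithelial line from a human colorectal adenocarcinoma, and the transcriptome was compared with that of vehicle-treated cells in the same medium. The comparison used 6 of the 12 RNA sequencing libraries in the study, chosen by their labels. The 3 replicates of cells given 100 nM bafilomycin A1 stood against 3 replicates given vehicle, each after 48 h in DMEM with 0.1 g/L glucose, 0.2 mM glutamine and 1% serum. The other 6 libraries came from cells given 100 nM bafilomycin A1 or vehicle for 48 h in rich medium, which was EMEM with 1 g/L glucose, 2 mM glutamine and 20% serum. They were used where a response was compared between the media, and in the fit of all 12 libraries given beside some depleted-medium calls. That fit takes the spread from the rich-medium libraries as well. The media differ in base medium as well as in nutrients, and both contained pyruvate and non-essential amino acids. All groups carry a wild-type genotype label, the cells were sub-confluent when treated, and the labels do not name the vehicle. Separate cultures are not stated for the replicates, so the p-values cover the spread among these libraries alone, which could be technical.

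The vacuolar ATPase pumps protons into lysosomes and endosomes, and bafilomycin A1 binds its membrane rotor and stops it. Acid hydrolases then lose their activity, autophagosome cargo is not broken down, and cholesterol and iron taken up by endocytosis are not released into the cell. When sterol in the endoplasmic reticulum is low, the SREBP factors are carried to the Golgi, cleaved and switch on the genes of sterol and fatty acid synthesis. The lysosome surface also hosts the Rag GTPases and mTORC1, which hold the MiT/TFE factors, activators of lysosome and autophagy genes, in the cytoplasm while nutrients are plentiful.

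The bafilomycin A1 libraries held 33859998 to 49911545 reads assigned to genes and the vehicle libraries 36152188 to 46166464. Ribosomal RNA took 4.67 to 9.10% of the reads with bafilomycin A1 and 5.32 to 8.70% with vehicle. The first principal component of the 6 libraries, with 51.4% of the variance, placed the bafilomycin A1 libraries at -26.6, -39.1 and -55.1 and the vehicle libraries at 38.8, 49.5 and 32.5. Values below are CPM, the reads of a gene scaled to a fixed library total with TMM factors, in replicates 1, 2 and 3. Genes were called where edgeR's quasi-likelihood test gave an adjusted p (Benjamini-Hochberg) under 0.05. CPM is a share of a library, so fewer cells of a type and less RNA per cell cannot be told apart in these bulk samples. The median gap between gene length and effective length, which grows with fragment length, was 176, 188 and 199 bases with bafilomycin A1 and 208, 222 and 214 bases with vehicle. Its groups did not overlap (exact two-sided permutation test, p = 0.10, the smallest that 3 against 3 allow). The median log2 fold change was -0.15 in the fifth of genes with the shortest transcripts and 0.03 in the fifth with the longest. The deposited TPM of the median gene was higher with bafilomycin A1 by 0.26 on the log2 scale, so TPM is used below only for levels.

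Bafilomycin A1 changed the level of 4259 of 17117 genes tested (24.9%), with 2067 higher (12.1%) and 2192 lower (12.8%). The counts of the gene lists below stand beside these shares. The genes that rose included members of sterol synthesis, coated-vesicle transport and autophagy, and the genes that fell included members of the mitosis, cathepsin and annexin lists and actin-linked targets of YAP and SRF. Most changes were moderate. The median log2 fold change was 0.64 among genes that rose and -0.78 among genes that fell, and 379 genes rose and 743 fell by over 2-fold. The groups did not overlap in 7056 genes (41.2% of those tested), nor in 4199 of the 4259 called. Without vehicle replicate 1 the counts were 1152 higher and 1331 lower, and without bafilomycin A1 replicate 2 there were 1433 lower.

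The largest rise by the rule for named genes was in CADPS2, a calcium-dependent activator of dense-core vesicle secretion (chromosome 7, 122318411 to 122886460, GRCh38.p14). It stood at 5.43, 10.3 and 11.8 CPM in the bafilomycin A1 libraries, against 1.41, 0.609 and 0.869 CPM in the vehicle libraries (9.30-fold; log2 fold change 3.22, SE 0.36, edgeR adjusted p = 0.00036). Every treated library was above every vehicle library. MFSD2A, a transporter of lysophospholipids that carry long-chain fatty acids, had 12.5, 23.1 and 16.7 CPM with bafilomycin A1, against 1.81, 2.9 and 2.5 CPM with vehicle (7.29-fold). INHBE, an activin subunit induced by cellular stress, was the most abundant of the 15 genes with the largest rises other than INSIG1, at 156, 217 and 214 CPM with bafilomycin A1 against 41.1, 48.5 and 47.7 CPM with vehicle. The mitochondrial docking gene SNPH (log2 fold change 2.61), the membrane protein gene TMEM151A (2.40), the homeobox gene HOXB9 (2.34), the osmosensitive channel gene TMEM63C (2.19) and the co-chaperone gene DNAJC12 (2.13) followed. BIRC7, an inhibitor of apoptosis (2.05), ARFGEF3 (2.02), DDN (1.98), the kinesin gene KIF5C (1.94) and the homeobox gene MKX (1.88) completed that group with INSIG1 and NPRL2, described below. HOXB9 lost its call without vehicle replicate 1 (adjusted p = 0.062) and with no low-count filter (0.098).

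Among the 15 deepest falls, PRSS35, a serine protease-like secreted protein (chromosome 6, 83512534 to 83525704), was at 7.37, 5.68 and 3.45 CPM with bafilomycin A1 and 37.3, 59.2 and 33.4 CPM with vehicle (log2 fold change -2.96, SE 0.30, adjusted p = 0.00033). CHI3L1, a secreted chitinase-like glycoprotein, was at 6.86, 7.91 and 3.35 CPM with bafilomycin A1 and 44.9, 60.8 and 33.5 CPM with vehicle. The groups were far apart in both genes, with every treated library far below the lowest vehicle library. The growth factor gene TGFB2 fell by 2.68 on the log2 scale, the potassium channel gene KCNJ16 by 2.63, the matrix protein genes OLFML3 by 2.51 and CCDC80 by 2.20, and the fetal serum protein gene AFP by 2.43. SCARA3 (-2.43), the growth factor receptor gene PDGFRB (-2.37), the semaphorin gene SEMA5A (-2.32), the apelin receptor ligand gene APELA (-2.36), LRRC7 (-2.33), the carboxypeptidase gene CPA6 (-2.29) and EFR3B (-2.29) fell as well. SIGLEC6, a sialic acid-binding lectin, had a log2 fold change of -2.55, and of -3.14 without bafilomycin A1 replicate 1.

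**Figure D1:**
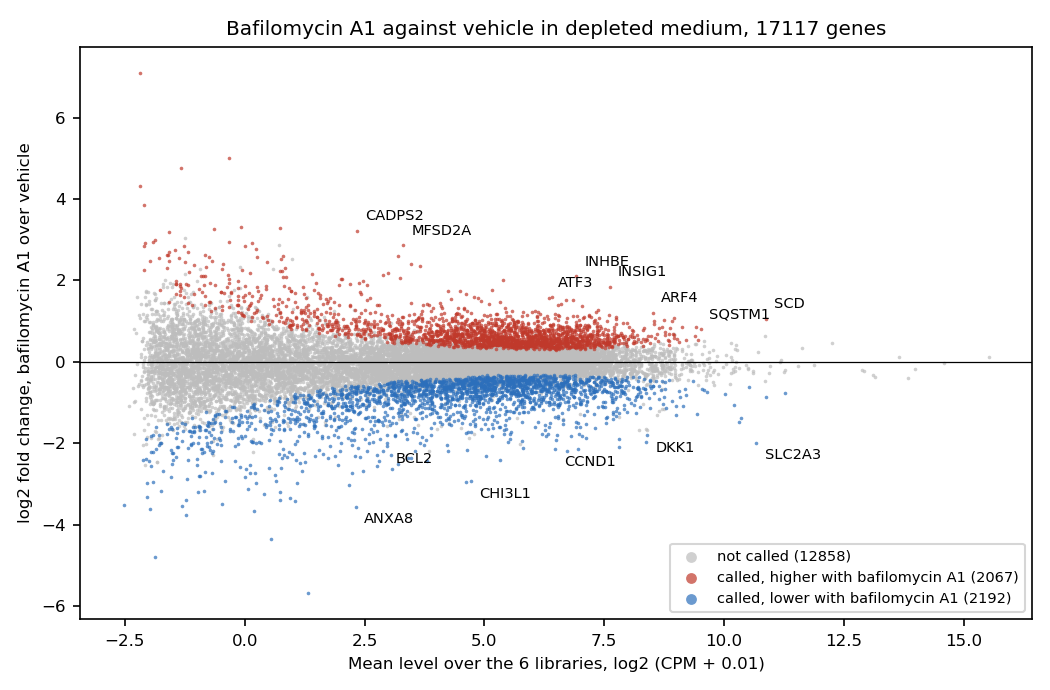
Log2 fold change of bafilomycin A1 over vehicle (vertical axis) against the mean level over the 6 libraries as log2 of CPM plus 0.01 (horizontal axis), 1 point per gene tested. Red points are the 2067 genes that rose and blue points the 2192 that fell, and the labelled genes are described in the text.

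Ranked by deposited TPM, the most abundant genes that rose included SCD, a fatty acid desaturase, ARF4, a GTPase of Golgi vesicle transport, SQSTM1, an autophagy receptor, and TRIB3, a stress-induced pseudokinase. SCD averaged 629 TPM and SQSTM1 433 TPM with bafilomycin A1, and from the counts their log2 fold changes were 1.05 and 0.81. The 5 most abundant that fell were the ribosomal protein genes RPL7A, RPS27 and RPL39, the histone gene H4C12 and the actin gene ACTG1, at log2 fold changes of -0.68, -0.50, -0.56, -0.66 and -0.61. These are modest values, and each of the 5 lost its call in some fits with 1 library left out (adjusted p up to 0.155 for ACTG1 without bafilomycin A1 replicate 2 and 0.151 for RPL39 without the same library). With offsets that remove the trend with gene length, RPS27, RPL39 and H4C12 were not called (adjusted p = 0.176, 0.139 and 0.0757).

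Sterol synthesis was the gene list with the highest share of called members. Of its 22 enzymes, all of which passed the low-count filter, 18 rose and none fell, with a median log2 fold change of 0.87 against -0.03 over all genes. With any 1 library left out, 16 to 18 rose. INSIG1, the sterol-sensing protein that retains SREBP in the endoplasmic reticulum and is itself an SREBP target, stood at 283, 300 and 334 CPM with bafilomycin A1 and 79.2, 102 and 73.8 CPM with vehicle (log2 fold change 1.84, SE 0.15, adjusted p = 7.8e-05). Its lowest treated library was far above the highest vehicle library. MVD and MVK, the decarboxylase and kinase that process mevalonate, rose by 1.53 and 1.49 on the log2 scale. In MVD the treated libraries were at 177, 134 and 150 CPM and the vehicle libraries at 52.2, 53.5 and 54.2 CPM. MVK was at 48.0, 43.6 and 43.2 CPM with bafilomycin A1 and 16.5, 15.8 and 15.7 CPM with vehicle. The vehicle libraries of both genes were almost level, and no treated library came near them.

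The promoter windows of these genes, from 250 bases before to 50 after the RefSeq start on GRCh38.p14, are shown because they are the 3 sterol-list members with the largest rises that hold a searched motif. CLCN6, an endolysosomal chloride and proton exchanger and the called autophagy or lysosome member with the largest change to hold one, stands beside them. INSIG1 lies at chr7:155297628-155297927 on the plus strand, MVD at chr16:88663042-88663341 on the minus strand, MVK at chr12:109573544-109573843 on the plus strand and CLCN6 at chr1:11805941-11806240 on the plus strand. Capitals mark CCAAT boxes (CCAAT, or ATTGG where it lies on the other strand), the palindrome TCACGTGA and the E-box CACGTG, which the palindrome contains.
INSIG1: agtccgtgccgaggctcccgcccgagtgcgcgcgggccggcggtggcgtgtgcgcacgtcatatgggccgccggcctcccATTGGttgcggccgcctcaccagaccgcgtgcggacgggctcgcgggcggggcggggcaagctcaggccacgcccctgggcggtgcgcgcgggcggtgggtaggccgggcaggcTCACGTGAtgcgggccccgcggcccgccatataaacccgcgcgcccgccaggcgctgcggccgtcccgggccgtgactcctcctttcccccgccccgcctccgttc
MVD: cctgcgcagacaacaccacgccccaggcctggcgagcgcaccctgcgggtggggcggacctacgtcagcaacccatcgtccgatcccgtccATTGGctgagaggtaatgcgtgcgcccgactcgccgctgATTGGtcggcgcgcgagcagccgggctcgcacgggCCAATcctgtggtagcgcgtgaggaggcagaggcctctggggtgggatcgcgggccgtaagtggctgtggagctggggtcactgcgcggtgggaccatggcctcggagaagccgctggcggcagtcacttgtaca
MVK: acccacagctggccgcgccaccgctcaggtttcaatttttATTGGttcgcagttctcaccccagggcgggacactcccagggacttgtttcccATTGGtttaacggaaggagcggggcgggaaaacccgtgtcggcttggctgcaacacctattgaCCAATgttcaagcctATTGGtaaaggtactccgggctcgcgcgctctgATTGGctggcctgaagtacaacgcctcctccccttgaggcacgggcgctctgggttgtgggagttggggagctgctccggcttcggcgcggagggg
CLCN6: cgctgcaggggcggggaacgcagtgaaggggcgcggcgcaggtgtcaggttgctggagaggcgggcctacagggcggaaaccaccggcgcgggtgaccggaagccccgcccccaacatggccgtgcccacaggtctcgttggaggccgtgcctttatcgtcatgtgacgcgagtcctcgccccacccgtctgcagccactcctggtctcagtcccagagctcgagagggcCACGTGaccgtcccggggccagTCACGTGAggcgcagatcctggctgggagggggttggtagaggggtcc
The motifs below were searched on both strands: CCAAT, TCACGTGA of the kind that MiT/TFE factors bind, its core CACGTG, the sterol regulatory element core CACCCCAC, the ATF response element TGATGNAAT and the cell cycle element TTTGAA. MVD held 3 CCAAT boxes and MVK 5, while INSIG1 held 1 and also the palindrome, which began 56 bases before the start. In CLCN6 the palindrome began 2 bases from the start. A CCAAT box was found in 13 of 17 sterol synthesis promoters in the table (76.5%), against 35.7% of all 27305 promoters. The palindrome was found in 0 of those 17, against 1.04% of all promoters and 1.79% of those of genes tested. CACCCCAC was found in 0 of 17, against 2.72% and 2.68%. Motifs this rare would often be missed in 17 promoters, so these counts cannot show that the list lacks them. These matches describe letters in a short window and say nothing of binding.

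LSS, the cyclase that forms lanosterol, was at 261, 225 and 212 CPM with bafilomycin A1 and 95.4, 106 and 86.9 CPM with vehicle (log2 fold change 1.27). ACAT2, which makes acetoacetyl-CoA, rose by 1.15. HMGCS1, which makes HMG-CoA, rose by 0.69, a call not made in the fit of all 12 libraries (adjusted p = 0.077). Among the 4 enzymes not called were TM7SF2 (log2 fold change -0.06), PMVK (0.06) and GGPS1 (0.27), named after their values were seen. No enzyme of the list was called lower.

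Among 16 genes of sterol sensing and uptake, 5 rose and 2 fell (median 0.23), with 1 falling without bafilomycin A1 replicate 1 or 3 or vehicle replicate 1 or 2. INSIG2, the second INSIG protein, rose by 1.14 on the log2 scale. MYLIP, a ubiquitin ligase of sterol uptake induced by the sterol sensor LXR, fell to 22.2, 21.1 and 15.6 CPM with bafilomycin A1, against 39.0, 36.5 and 43.1 CPM with vehicle (log2 fold change -1.01). The SREBP genes themselves were not called, at 0.31 for SREBF1 (SE 0.14, adjusted p = 0.14) and 0.02 for SREBF2 (SE 0.14, adjusted p = 0.93). SREBF1 was called without vehicle replicate 2 (0.44, adjusted p = 0.047).

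**Figure D2:**
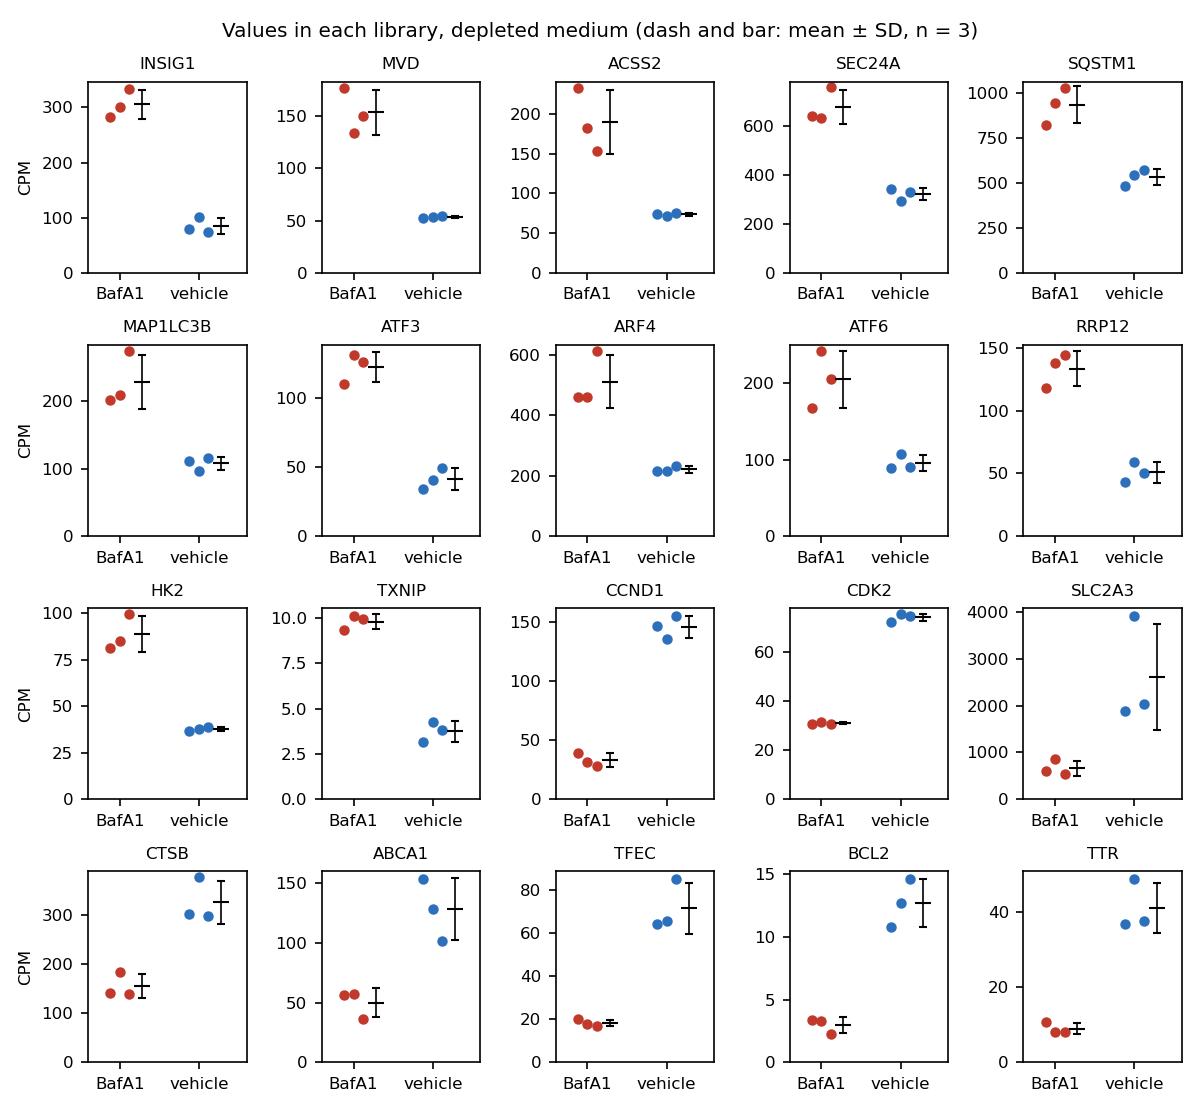
CPM of 20 genes in each library in depleted medium, with bafilomycin A1 (BafA1, red) to the left and vehicle (blue) to the right, each axis starting at 0. In all 20 genes the groups do not overlap; dashes and bars are the mean and SD of 3 libraries.

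Of 17 fatty acid synthesis genes tested out of 18, 7 rose and none fell (median log2 fold change 0.46). ACSS2, which turns acetate into acetyl-CoA, was at 233, 183 and 153 CPM with bafilomycin A1 and 74.2, 71.3 and 75.5 CPM with vehicle (1.36). The elongase gene ELOVL5 rose by 1.22, the desaturase gene SCD by 1.05 and FASN, the fatty acid synthase gene, by 0.85. The FASN call was not made in the fit of all 12 libraries (adjusted p = 0.065). Of 22 genes of phospholipid and triglyceride synthesis, 7 rose and 3 fell. Besides MFSD2A, the phosphatidate phosphatase gene LPIN1 rose, at 52.7, 48.0 and 42.8 CPM with bafilomycin A1 and 22.8, 20.9 and 25.1 CPM with vehicle. DGAT2, which makes the final step of triglyceride synthesis, and AGPAT1 fell by 0.77 and 0.75. The number that rose was 3 without vehicle replicate 1 and 4 without bafilomycin A1 replicate 3.

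Genes that move sterol out of the lysosome or the cell were divided. Of 9 tested out of 12, 2 rose and 2 fell, with none rising without vehicle replicate 1 and 1 without bafilomycin A1 replicate 1 or 2 or vehicle replicate 3. LIPA, the acid lipase that frees cholesterol from its esters, rose by 0.78, and NPC1, the membrane protein that exports it from the lysosome, by 0.56. NPC2, its soluble partner, fell to 112, 104 and 107 CPM with bafilomycin A1, against 147, 160 and 148 CPM with vehicle (log2 fold change -0.50). ABCA1, a plasma membrane cholesterol exporter and LXR target, was at 56.9, 57.2 and 36.1 CPM with bafilomycin A1 and 154, 129 and 102 CPM with vehicle (-1.36, SE 0.20, adjusted p = 0.0011). The ABCA1 call was not made in the fit of all 12 libraries (adjusted p = 0.22), the LIPA call not without vehicle replicate 1 (0.051), and the NPC1 call not without bafilomycin A1 replicate 1 or 2 or vehicle replicate 1 or 3 (0.056 to 0.15).

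The lysosomal gene lists did not move together. Of 23 genes for V-ATPase subunits, the target of the compound, and its accessory proteins, 5 rose (21.7%) and 3 fell (13%). Over all genes tested 12.1% rose and 12.8% fell, so the falls were near the share of all genes. The median of the list was 0.05. Among the subunits that rose were ATP6V1D (log2 fold change 0.58) and ATP6V1H (0.41), both of the catalytic sector. The 3 that fell are subunit forms known from specialised epithelia: ATP6V1B1 (-1.76), ATP6V0A4 (-1.39) and ATP6V1C2 (-1.21). They were scarce, with ATP6V1B1 at 2.05, 1.32 and 3.32 CPM with bafilomycin A1 and 6.77, 3.36 and 12.3 CPM with vehicle. Each of these 3 calls ended in 3 to 5 of the 6 fits with 1 library left out, as in that without vehicle replicate 3 (adjusted p = 0.0597, 0.148 and 0.148), and in the fit of all 12 libraries (0.169, 0.165 and 0.128). ATP6V1H was not called without bafilomycin A1 replicate 3 or any 1 vehicle replicate (0.0513 to 0.106), and 1 gene of the list rose without vehicle replicate 1 and 3 without bafilomycin A1 replicate 3 or vehicle replicate 2 or 3. ATP6V0C, which encodes the rotor ring that bafilomycin A1 binds, was at 86.4, 89.1 and 90.1 CPM with bafilomycin A1 and 101, 131 and 99.2 CPM with vehicle and was not called (log2 fold change -0.32, SE 0.13, adjusted p = 0.090).

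Of 12 cathepsin and legumain genes tested out of 14, 5 fell and none rose (median -0.35). CTSB, the cathepsin B gene, stood at 142, 185 and 140 CPM with bafilomycin A1 and 302, 377 and 299 CPM with vehicle (log2 fold change -1.07, SE 0.16, adjusted p = 0.0011). The treated libraries were at about the same level and well under the vehicle ones. CTSC, which activates granule proteases, fell by 0.99, CTSO by 1.42 and CTSZ by 0.59, though CTSZ was not called with all 12 libraries (adjusted p = 0.077). Of 35 hydrolase genes 7 fell and 2 rose, a count that dropped to 2 falling without bafilomycin A1 replicate 3 or without vehicle replicate 2 and to 3 without bafilomycin A1 replicate 1, with 1 rising without vehicle replicate 1. GM2A, the ganglioside activator protein gene, was at 24.5, 25.7 and 22.1 CPM with bafilomycin A1 and 42.7, 47.8 and 48.0 CPM with vehicle (-0.94). The 2 that rose were LIPA and ACP5, an acid phosphatase chosen here after its values were seen, at 0.380, 0.465 and 0.923 CPM with bafilomycin A1 and 0.021, 0.116 and 0.056 CPM with vehicle.

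Of 25 lysosomal membrane proteins and channels, 6 rose and 2 fell. CLCN6, whose promoter is printed above, was at 104, 109 and 83.9 CPM with bafilomycin A1 and 43.9, 54.8 and 33.8 CPM with vehicle (log2 fold change 1.17, SE 0.17, adjusted p = 0.0012). MFSD8, a lysosomal transporter mutated in neuronal ceroid lipofuscinosis, rose by 0.79 and OSTM1, the partner of the exchanger CLCN7, by 0.76. SLC29A3, a lysosomal nucleoside transporter, fell by 0.79. Only 2 members rose without vehicle replicate 1, and 3 without bafilomycin A1 replicate 2 or vehicle replicate 3. None fell without vehicle replicate 2, and 1 without bafilomycin A1 replicate 1 or 3 or vehicle replicate 3. The OSTM1 call ended without vehicle replicate 1 (adjusted p = 0.059), and that of SLC29A3 without vehicle replicate 2 (0.056) and with all 12 libraries (0.056).

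Autophagy genes were higher where they were called. Of 39 genes of the machinery 16 rose and none fell (median 0.33), and 11 to 15 rose with 1 library left out. MAP1LC3B, which encodes the LC3B protein that coats autophagosomes, was at 202, 210 and 275 CPM with bafilomycin A1 and 111, 96.9 and 115 CPM with vehicle (log2 fold change 1.09, SE 0.15, adjusted p = 0.00069). Its near copy MAP1LC3B2 also rose (1.22), but reads of such close copies cannot be assigned with certainty. ATG101, a subunit of the initiating kinase complex, rose by 1.08 and ATG4A, the protease that primes LC3 proteins, by 0.96. Of 16 cargo receptors 6 rose and none fell (median 0.36). SQSTM1, the ubiquitin-binding receptor p62, was at 825, 947 and 1030 CPM with bafilomycin A1 and 484, 544 and 573 CPM with vehicle (0.81, SE 0.15, adjusted p = 0.0042). BNIP3L and BNIP3, receptors for mitochondria, rose by 0.74 and 0.69, and STBD1, a glycogen receptor, by 0.69. The count of receptors fell to 3 without vehicle replicate 1 or 2. BNIP3 was not called without bafilomycin A1 replicate 3 or vehicle replicate 1 or 2 (adjusted p 0.0658 to 0.0805) or with all 12 libraries (0.129), and BNIP3L not in the last of these (0.063).

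In the nutrient-sensing machinery on the lysosome, 5 of 25 genes rose and 1 fell. NPRL2, a subunit of the GATOR1 complex that switches mTORC1 off when amino acids are short, was at 44.0, 53.7 and 67.0 CPM with bafilomycin A1 and 16, 13.9 and 18.9 CPM with vehicle (log2 fold change 1.75, SE 0.17, adjusted p = 0.00020). The Rag GTPase genes RRAGD and RRAGC, targets of the MiT/TFE factors, rose by 1.02 and 0.73. TFEC, the least studied MiT/TFE factor, fell to 20, 18 and 17 CPM with bafilomycin A1, against 64.2, 65.6 and 85.5 CPM with vehicle (-1.97, SE 0.14, adjusted p = 6.3e-05). TFEB, the best-known member, was scarce, at 1.54, 1.22 and 1.94 CPM with bafilomycin A1 and 1.54, 2.03 and 2.75 CPM with vehicle, and was not called (-0.43, adjusted p = 0.36). Among 16 mTORC1 inhibitors DDIT4 (0.80) and AKT1S1 (0.66) rose and TBC1D7, the third subunit of the TSC complex, fell (-1.19). These are 12.5% and 6.25% of the list, against 12.1% higher and 12.8% lower over all genes tested. The AKT1S1 call ended without vehicle replicate 1 (adjusted p = 0.051). On endosomes, RILP, the Rab7 effector that moves lysosomes along microtubules, rose to 17.1, 20.6 and 17.9 CPM with bafilomycin A1, against 9.13, 10.2 and 9.14 CPM with vehicle. Of 46 endosomal genes 8 rose (17.4%) and 4 fell (8.7%), near the shares of all genes. Without vehicle replicate 1, 4 rose and none fell. None fell without bafilomycin A1 replicate 2 or vehicle replicate 3, and 2 fell without bafilomycin A1 replicate 3.

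Genes of transport between the endoplasmic reticulum and the Golgi had, after sterol synthesis, the highest share of members called higher among the lists (65.4%). Of 26 genes for COPI and COPII coats and their partners, 17 rose and none fell (median 0.58), and 13 to 15 rose with 1 library left out. ARF4 was at 461, 460 and 613 CPM with bafilomycin A1 and 215, 214 and 233 CPM with vehicle (log2 fold change 1.21, SE 0.15, adjusted p = 0.00054). SEC24A, a COPII subunit that selects cargo, was at 639, 631 and 757 CPM with bafilomycin A1 and 340, 294 and 329 CPM with vehicle. The lowest treated library was clearly above the highest vehicle library in both genes. KDELR3, a retrieval receptor for chaperones, and SAR1B, the GTPase that starts COPII coats, rose by 0.98 and 0.96. CCAAT boxes were found in 6 of 23 promoters of this list (26.1%), below the share of all promoters given above.

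**Figure D3:**
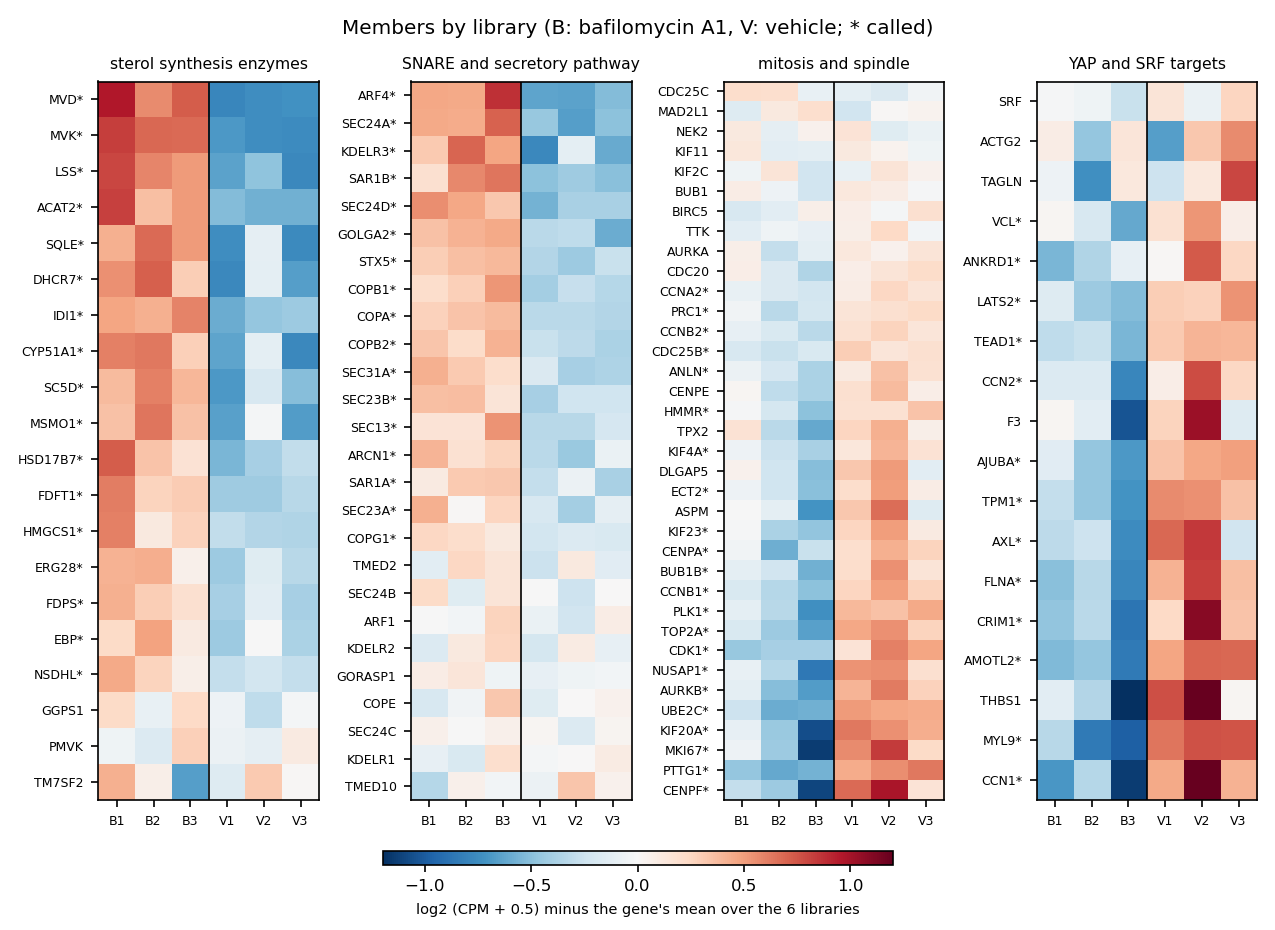
Log2 of CPM plus 0.5 minus the gene's mean over the 6 libraries, for tested members of 4 lists, leaving out some genes not reported here, with bafilomycin A1 replicates (B1 to B3) left of vehicle replicates (V1 to V3); a star marks a called gene. Over the whole lists, 18 of 22 sterol synthesis enzymes and 17 of 26 transport genes are called higher, while 22 of 36 mitosis genes and 13 of 18 YAP and SRF targets are called lower.

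The genes of all 3 sensors of the unfolded protein response rose, while 16 of the 23 genes in the list of chaperones and unfolded protein response genes were not called. ERN1, the gene of the sensor IRE1, was at 157, 186 and 160 CPM with bafilomycin A1 and 64.8, 88.1 and 77.0 CPM with vehicle (log2 fold change 1.13). ATF6, a sensor cleaved in the Golgi, was at 167, 242 and 206 CPM with bafilomycin A1 and 89.6, 107 and 89.7 CPM with vehicle (1.11, SE 0.15, adjusted p = 0.00072). EIF2AK3, the gene of the sensor kinase PERK, named here after its values were seen, was at 119, 146 and 120 CPM with bafilomycin A1 and 70.3, 99.7 and 64.4 CPM with vehicle (0.72, SE 0.17, adjusted p = 0.0103), and was not called without vehicle replicate 1 (adjusted p = 0.0528). SYVN1 and HERPUD1, which work in the removal of misfolded proteins, rose by 0.87 and 0.85. In all, 7 of the 23 genes rose and none fell, with 4 rising without vehicle replicate 1 and 11 without vehicle replicate 2. CCAAT boxes were found in 19 of 22 promoters of the list (86.4%).

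ATF4 effectors, genes of the amino acid response, were called higher more often than lower. Of 37 tested out of 38, 11 rose (29.7%) and 5 fell (13.5%). Over all genes tested 12.1% rose and 12.8% fell, so the falls were near the share of all genes. ATF3, a stress-induced transcription factor, was at 110, 131 and 126 CPM with bafilomycin A1 and 33.9, 40.5 and 49.1 CPM with vehicle (log2 fold change 1.57, SE 0.15, adjusted p = 0.00013). INHBE and TRIB3 rose by 2.10 and 0.82. DDIT3, the pro-apoptotic factor CHOP, rose by 0.55 but not without vehicle replicate 1 (adjusted p = 0.082) or with all 12 libraries (0.28). SLC7A5, the leucine transporter gene, fell to 267, 312 and 251 CPM with bafilomycin A1, against 488, 766 and 573 CPM with vehicle (-1.14), and JDP2 fell by 0.86. ATF4 itself (-0.10, SE 0.17, adjusted p = 0.70) and ASNS, the asparagine synthetase gene (0.03, SE 0.13, adjusted p = 0.89), were not called. The count of rises was 7 without vehicle replicate 1. Of 20 cytosolic aminoacyl-tRNA synthetases 6 rose and none fell, led by FARSA (0.74) and VARS1 (0.73), with 3 rising without vehicle replicate 1 or 3.

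Genes of glucose use moved both ways. SLC2A3, which encodes the high-affinity glucose transporter GLUT3, stood at 594, 849 and 533 CPM with bafilomycin A1 and 1890, 3920 and 2030 CPM with vehicle (log2 fold change -1.99, SE 0.30, adjusted p = 0.0013). Vehicle replicate 2 was the highest of the 6, and the groups did not overlap. HK2, the hexokinase that traps glucose, rose to 81.4, 85.3 and 99.8 CPM with bafilomycin A1, against 36.8, 38.0 and 38.6 CPM with vehicle (1.23). TXNIP, whose transcription follows glucose and which limits its uptake, was at 9.33, 10.1 and 9.94 CPM with bafilomycin A1 and 3.14, 4.26 and 3.84 CPM with vehicle (1.39). Of 23 glycolysis genes 4 rose and 7 fell, with 4 falling without bafilomycin A1 replicate 2 or 3 or vehicle replicate 1. Of 23 hypoxia response genes tested out of 24, 6 rose and 5 fell. The rises included the circadian repressor BHLHE40 (1.31), PDK1, which keeps pyruvate out of mitochondria (1.01), and PFKFB4 (1.00), and the falls included the carbonic anhydrase gene CA12 (-1.58). HIF1A was not called (0.31, SE 0.19, adjusted p = 0.28).

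Iron handling genes were called lower more often than higher, with 6 lower (26.1%) and 2 higher (8.7%) of 23 tested out of 25. Over all genes tested 12.8% were lower and 12.1% higher. As a whole the list was balanced, with 11 members above 0, 12 below and a median log2 fold change of -0.05. None was higher without bafilomycin A1 replicate 3 or vehicle replicate 1 or 2, and 1 was without bafilomycin A1 replicate 1 or 2. SLC40A1, the iron exporter ferroportin, was at 102, 68.4 and 89.1 CPM with bafilomycin A1 and 155, 149 and 214 CPM with vehicle (log2 fold change -0.99). HEPH, the ferroxidase that works with it, fell by 1.01 and HFE, a regulator of iron uptake, by 1.02. The transferrin receptor gene TFRC (0.26, SE 0.22, adjusted p = 0.44) and the ferritin gene FTH1 (0.17, SE 0.20, adjusted p = 0.58) were not called. Among zinc and copper genes, where 4 rose and 3 fell of 15 tested out of 17, ATP7A, a copper exporter, rose by 0.82 and the zinc importer gene SLC39A10 fell by 1.06.

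Of 36 mitosis genes 22 fell and none rose (median -0.48). This count was 11 without bafilomycin A1 replicate 2, 12 without vehicle replicate 1 or 2 and 13 without bafilomycin A1 replicate 3. PTTG1, the securin that holds sister chromatids together, was at 9.65, 8.64 and 8.95 CPM with bafilomycin A1 and 18.5, 20.1 and 21.2 CPM with vehicle (log2 fold change -1.13, SE 0.14, adjusted p = 0.00045). CENPF, a kinetochore protein gene, had its lowest value in bafilomycin A1 replicate 3, at 41.6, 37.3 and 23.4 CPM with bafilomycin A1 against 81.8, 100 and 57.0 CPM with vehicle (-1.22). KIF20A fell by 1.04. The proliferation marker MKI67 fell by 1.05, a call that ended without bafilomycin A1 replicate 2 (adjusted p = 0.072) or vehicle replicate 1 or 2 (0.054 and 0.052). Of 40 DNA replication genes 16 fell and 3 rose, with 0 rising without vehicle replicate 1 and 1 without bafilomycin A1 replicate 2 or vehicle replicate 3. RRM2, the ribonucleotide reductase subunit, was at 17.7, 13.8 and 12.8 CPM with bafilomycin A1 and 30.8, 39.4 and 33.2 CPM with vehicle (-1.22). UHRF1, GINS2 and TK1 fell by 1.11, 1.05 and 0.85. The element TTTGAA was found in 20 of 31 mitosis promoters (64.5%), against 15.4% of all promoters, and CCAAT in 25 of 31 (80.6%).

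Replication-dependent histone genes fell in 24 of 32 cases tested out of 35, with none rising. Their transcripts are short, and with offsets that remove the trend with gene length 7 fell. The count was 12 without bafilomycin A1 replicate 2, and 3 in the fit of all 12 libraries, where 5.91% of all genes were lower. H2BC5 was at 55.1, 44.9 and 34.5 CPM with bafilomycin A1 and 81.6, 106 and 82.6 CPM with vehicle (log2 fold change -1.0), and H2BC9 fell by 0.91. Histone genes are close copies, and the split of reads between them is uncertain.

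Among regulators of the start of the cycle, CCND1, the cyclin D1 gene, showed the deepest fall. It stood at 39.4, 31.1 and 28.2 CPM with bafilomycin A1 and 147, 136 and 155 CPM with vehicle (log2 fold change -2.15, SE 0.14, adjusted p = 6.3e-05). CDK2, the kinase that drives S phase entry, was at 30.6, 31.3 and 30.8 CPM with bafilomycin A1 and 72.3, 75.4 and 74.5 CPM with vehicle (-1.26, SE 0.10, adjusted p = 7.8e-05). Replicates of each group were nearly level in CDK2. CDKN1A, the inhibitor p21, rose by 0.96, a call that ended without bafilomycin A1 replicate 3 (adjusted p = 0.059) or vehicle replicate 1 (0.076). Of 20 genes in this list 3 rose and 7 fell. Without vehicle replicate 1 none rose and 3 fell, without bafilomycin A1 replicate 3 or vehicle replicate 2 there was 1 rise, and without bafilomycin A1 replicate 1 there were 4 falls.

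Ribosome biogenesis genes rose in 11 of 36 cases and none fell (median 0.23), with 7 rising without vehicle replicate 1. RRP12, a factor in the maturation of both ribosomal subunits, was at 118, 138 and 145 CPM with bafilomycin A1 and 42.9, 59.4 and 50.4 CPM with vehicle (log2 fold change 1.39, SE 0.14, adjusted p = 0.00022). POLR1B, a core subunit of RNA polymerase I, was at 93.9, 86.2 and 85.9 CPM with bafilomycin A1 and 50.4, 46.5 and 47.7 CPM with vehicle (0.88). MYBBP1A, a nucleolar protein gene, rose by 0.90. Of 54 cytosolic ribosomal protein genes 3 fell (5.56%, against 12.8% of all genes tested) and none rose (median -0.22). With offsets that remove the trend with gene length 1 fell. Without bafilomycin A1 replicate 3, 11 fell, and none fell without bafilomycin A1 replicate 2 or vehicle replicate 1 or 3.

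Of 18 YAP and SRF targets tested out of 20, 13 fell and none rose (median -0.82), and 9 to 14 fell with 1 library left out. CCN1, a matrix-associated YAP target, was at 11.9, 15.4 and 8.62 CPM with bafilomycin A1 and 27.0, 49.4 and 26.4 CPM with vehicle (log2 fold change -1.51). MYL9, a myosin light chain, was at 14.3, 9.87 and 8.98 CPM with bafilomycin A1 and 28.6, 31.2 and 31.0 CPM with vehicle (-1.45). AMOTL2 and CRIM1 fell by 1.23 and 1.15. Of 12 annexin genes tested out of 13, which encode calcium-dependent membrane-binding proteins, 8 fell and none rose (median -0.77). ANXA8 was at 1.04, 0.759 and 0.462 CPM with bafilomycin A1 and 9.49, 9.19 and 8.78 CPM with vehicle (-3.56, SE 0.27, adjusted p = 6.4e-05). Its near-identical neighbour ANXA8L1 fell too, with 1 treated library at 0, and the reads of this pair cannot be assigned with certainty. ANXA3 and ANXA2 fell by 1.48 and 0.91, ANXA2 standing at 299, 292 and 239 CPM with bafilomycin A1 and 481, 584 and 494 CPM with vehicle.

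DKK1, a secreted WNT antagonist and WNT target, was at 148, 169 and 134 CPM with bafilomycin A1 and 421, 699 and 449 CPM with vehicle (log2 fold change -1.80, SE 0.20, adjusted p = 0.00034). Of 18 stem cell and WNT genes tested out of 21, 6 fell and none rose, including PROM1 (-1.11), TNFRSF19 (-0.83) and RNF43 (-0.74). Of 18 junction genes 5 fell and none rose, with 2 falling without bafilomycin A1 replicate 3 or vehicle replicate 2 and 3 without bafilomycin A1 replicate 2 or vehicle replicate 1. CLDN2, the pore-forming claudin of leaky epithelia, was scarce, at 0.513, 0.636 and 0.492 CPM with bafilomycin A1 and 2.24, 3.62 and 2.72 CPM with vehicle (-2.37).

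The cells expressed the enterocyte and hepatic genes for which this line is known. HNF4A, a master regulator of gut and liver epithelium, was at 104 to 146 TPM with bafilomycin A1 and 103 to 150 TPM with vehicle. From the counts its log2 fold change was -0.37, and it was not called (edgeR adjusted p = 0.107). Without vehicle replicate 2 it was called (-0.48, edgeR adjusted p = 0.049). CDX1 and FABP2 were listed at 0 in all 6 libraries. Of 30 enterocyte genes tested out of 35, 8 fell and 2 rose (median -0.36). VIL1, the microvillus bundling protein villin, was at 219, 163 and 133 CPM with bafilomycin A1 and 313, 280 and 279 CPM with vehicle (log2 fold change -0.76, SE 0.17, adjusted p = 0.0099). APOA1, an apolipoprotein of gut and liver, fell by 1.15, and SLC2A2, the basolateral glucose transporter GLUT2, by 2.24 at under 5 CPM in every library. LCT, the lactase gene, had a log2 fold change of -2.0, and of -2.61 without bafilomycin A1 replicate 1. The 2 that rose were ALPI (0.44) and SLC5A1 (2.69), chosen after their values were seen. SLC5A1 was not called without vehicle replicate 1 (adjusted p = 0.0536). ALPI was not called without vehicle replicate 1 (adjusted p = 0.138) or 2 (0.124), without any 1 of the bafilomycin A1 libraries (0.0574, 0.0763 and 0.102), or with all 12 libraries (0.256).

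Of 9 hepatocyte markers tested out of 10, 5 fell and none rose (median -1.12). TTR, the thyroxine carrier transthyretin, was at 10.7, 8.13 and 8.18 CPM with bafilomycin A1 and 36.7, 48.7 and 37.5 CPM with vehicle (log2 fold change -2.18, SE 0.17, adjusted p = 6.4e-05). APOH was at 31.2, 23.1 and 14.3 CPM with bafilomycin A1 and 75.4, 95.8 and 93.1 CPM with vehicle (-1.94). Markers of other cell types were scarce in small panels. A wider list of 9 goblet genes was not, summing to 85.6 to 207 TPM with bafilomycin A1 and 110 to 152 TPM with vehicle. The summed level of 5 immune markers was 2.10 to 3.10 TPM with bafilomycin A1 and 1.16 to 1.82 TPM with vehicle, that of 4 endothelial markers 0.570 to 1.38 TPM with bafilomycin A1 and 2.01 to 2.38 TPM with vehicle, and that of 5 goblet markers 2.02 to 10.9 TPM with bafilomycin A1 and 6.90 to 9.70 TPM with vehicle. The 7 fibroblast markers summed to 11 to 25.3 TPM with bafilomycin A1 and 15.6 to 23.8 TPM with vehicle, and 2 of them stayed under 0.1 TPM in all libraries. KDR was listed at 0 in every library. The part of these markers in the results was not tested.

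Single regulators of cell death shifted in both directions. BCL2, which restrains mitochondrial apoptosis, was at 3.40, 3.33 and 2.25 CPM with bafilomycin A1 and 10.8, 12.7 and 14.6 CPM with vehicle (log2 fold change -2.08, SE 0.21, adjusted p = 0.00022). Its relative BCL2L1, which encodes BCL-XL, was at 205, 149 and 150 CPM with bafilomycin A1 and 382, 388 and 444 CPM with vehicle (-1.27, SE 0.16, adjusted p = 0.00051). HRK, a pro-apoptotic BH3-only gene, rose by 1.56 at 4.73, 9.30 and 13.3 CPM with bafilomycin A1, against 3.42, 2.32 and 3.42 CPM with vehicle. Of 25 apoptosis regulators 6 rose (24%) and 3 fell (12%), against 12.1% and 12.8% of all genes tested. Only 3 rose without bafilomycin A1 replicate 3 or vehicle replicate 1 or 2. Of 20 NRF2 antioxidant genes tested out of 21, 6 rose and 3 fell, with 1 falling without vehicle replicate 1 or 2. GCLC and GCLM, the subunits of the enzyme that limits glutathione synthesis, rose by 0.95 and 0.88, with GCLC at 215, 215 and 212 CPM with bafilomycin A1 and 105, 113 and 114 CPM with vehicle.

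**Figure D4:**
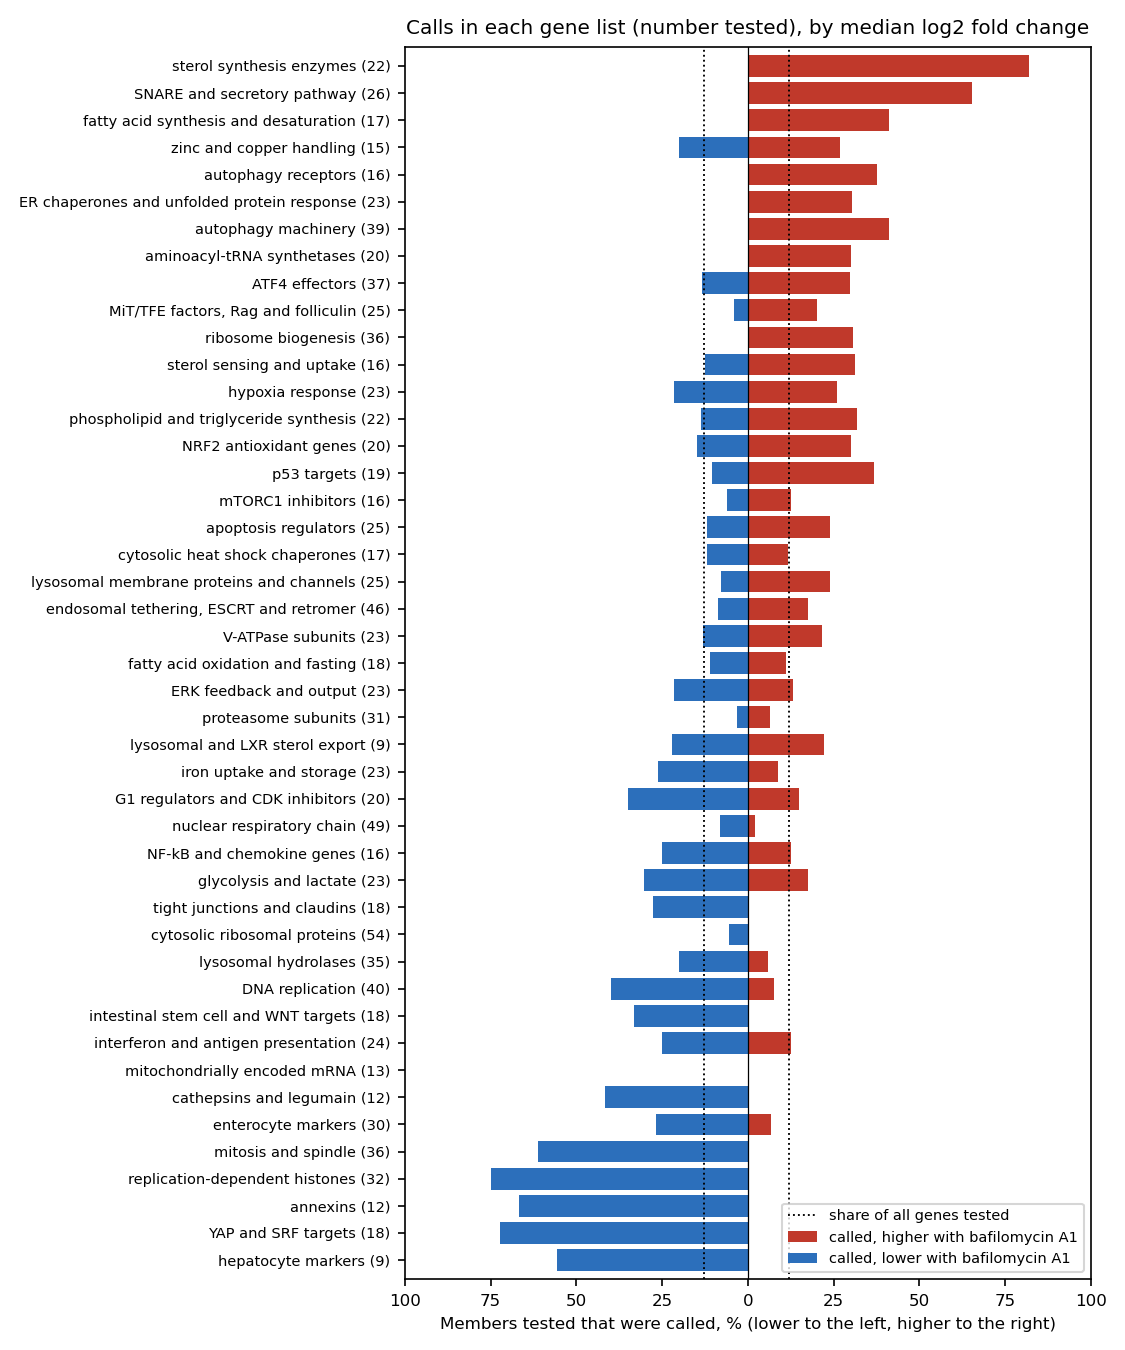
Share of the tested members of the gene lists called higher (red, to the right) or lower (blue, to the left) with bafilomycin A1, in percent, ordered by median log2 fold change. The goblet, enteroendocrine, fibroblast, immune and endothelial marker lists are left out. Dotted lines mark the shares of all genes tested, 12.1% higher and 12.8% lower. Sterol synthesis enzymes stand at 81.8% higher and replication-dependent histones at 75% lower.

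Whether a response differed from that in rich medium was tested as an interaction in 1 fit of all 12 libraries, which is the log2 fold change in depleted medium less the rich-medium one. It called 1116 of 18047 genes (6.18%), with the change in depleted medium higher in 424 (2.35%) and lower in 692 (3.83%). With offsets that remove the trend with gene length these counts were 709 and 765. The comparisons in the 2 media share no libraries. In that fit 183 genes were higher in both media, which is 18.4% of the 992 higher in depleted medium (5.50% of genes tested) and 16.5% of the 1109 higher in rich medium (6.15%). Another 178 were lower in both, 16.7% of 1066 in depleted medium (5.91%) and 20.6% of 862 in rich medium (4.78%), and 28 and 37 went opposite ways. Across genes, which are not independent replicates, the log2 fold changes in the 2 media correlated at r = 0.198, or 0.236 without 2 rich-medium libraries. These were the shallow vehicle replicate 1 (12969814 reads) and bafilomycin A1 replicate 3 (37409964 reads). Both had been described as standing apart, which was not tested here. Without these 2 libraries the interaction called 794 genes (4.28%), 288 higher (1.55%) and 506 lower (2.73%), and 633 were shared with the 12-library fit. It called 393 without depleted-medium vehicle replicate 1, 419 and 447 without depleted-medium bafilomycin A1 replicates 2 and 3, 583 and 506 without depleted-medium vehicle replicates 2 and 3, 667 and 600 without rich-medium bafilomycin A1 replicates 2 and 3, and 1844 without rich-medium vehicle replicate 2.

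Among the lists, ribosome biogenesis had the most genes called in this test. The change in depleted medium was higher in 18 of 36 genes and lower in none, and higher in 12 in the 10-library fit. In rich medium 20 of these genes were lower with bafilomycin A1 and none was higher. RRP12 averaged 129 ± 13.7 CPM with bafilomycin A1 and 49.0 ± 7.94 CPM with vehicle in depleted medium, and 62.8 ± 10.1 CPM with bafilomycin A1 and 91.9 ± 28.9 CPM with vehicle in rich medium (SD, n = 3; interaction 1.95, SE 0.29, adjusted p = 0.0042). Enterocyte markers went the other way, with the change in depleted medium lower in 10 of 31 genes, or 5 without those 2 libraries. APOA1 averaged 144 ± 34.0 CPM with bafilomycin A1 and 318 ± 95.1 CPM with vehicle in depleted medium, and 278 ± 28.4 CPM with bafilomycin A1 and 208 ± 57.1 CPM with vehicle in rich medium (interaction -1.56, SE 0.35, adjusted p = 0.019, or 0.062 without the 2 libraries). Of the 22 sterol synthesis enzymes, 13 were higher in depleted medium in this fit and 1 in rich medium, but the difference itself was called in 1.

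Among genes averaging at least 5 CPM, those with the largest differences were MFSD2A (interaction 2.26), HSPA4L, a chaperone of the HSP110 family (2.27), the mitochondrial ribosomal RNA gene RNR2 (2.27), FJX1 (2.14) and POLR3G, a subunit of RNA polymerase III (1.98) on the higher side. On the lower side they were CYP2W1, a cytochrome P450 (-3.83), ANXA8 (-3.62), the parathyroid hormone receptor gene PTH1R (-3.34), TFEC (-3.17) and the placental alkaline phosphatase gene ALPP (-2.82). DDN (2.39), ANXA8L1 (-5.30) and LCT (-2.88) were called too but averaged under 5 CPM over the 12 libraries. Without the same 2 rich-medium libraries, RNR2 (1.63, adjusted p = 0.0938), POLR3G (1.77, 0.0698) and PTH1R (-2.22, 0.135) were not called, and TFEC (-2.24) and CYP2W1 (-2.85) were called with smaller differences. With 1 library left out, PTH1R was called only without rich-medium bafilomycin A1 replicate 1 or rich-medium vehicle replicate 3. RNR2 was not called without depleted-medium bafilomycin A1 replicate 2 or 3, depleted-medium vehicle replicate 1 or 2, rich-medium bafilomycin A1 replicate 2 or 3 or rich-medium vehicle replicate 1 (adjusted p = 0.0518 to 0.0813). POLR3G was not called without depleted-medium bafilomycin A1 replicate 3, depleted-medium vehicle replicate 1 or 2 or rich-medium bafilomycin A1 replicate 3 (0.0504 to 0.0642), nor TFEC without depleted-medium bafilomycin A1 replicate 2 or 3 or vehicle replicate 3 (0.0532 to 0.0642). CYP2W1 averaged 4.86 ± 0.630 CPM with bafilomycin A1 and 19.4 ± 3.55 CPM with vehicle in depleted medium, and 7.89 ± 5.45 CPM with bafilomycin A1 and 2.12 ± 1.00 CPM with vehicle in rich medium. CCND1 averaged 31.9 ± 5.67 CPM with bafilomycin A1 and 141 ± 8.87 CPM with vehicle in depleted medium, and 363 ± 129 CPM with bafilomycin A1 and 450 ± 31.2 CPM with vehicle in rich medium (interaction -1.83, SE 0.32, adjusted p = 0.0065). BCL2 averaged 2.90 ± 0.625 CPM with bafilomycin A1 and 12.2 ± 1.83 CPM with vehicle in depleted medium, and 8.95 ± 0.984 CPM with bafilomycin A1 and 8.69 ± 2.70 CPM with vehicle in rich medium (-2.13, adjusted p = 0.0054). INSIG1, by contrast, averaged 296 ± 24.8 CPM with bafilomycin A1 and 82.1 ± 14.7 CPM with vehicle in depleted medium, and 380 ± 139 CPM with bafilomycin A1 and 169 ± 9.27 CPM with vehicle in rich medium, and its interaction was not called (0.68, SE 0.33, adjusted p = 0.23).

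**Figure D5:**
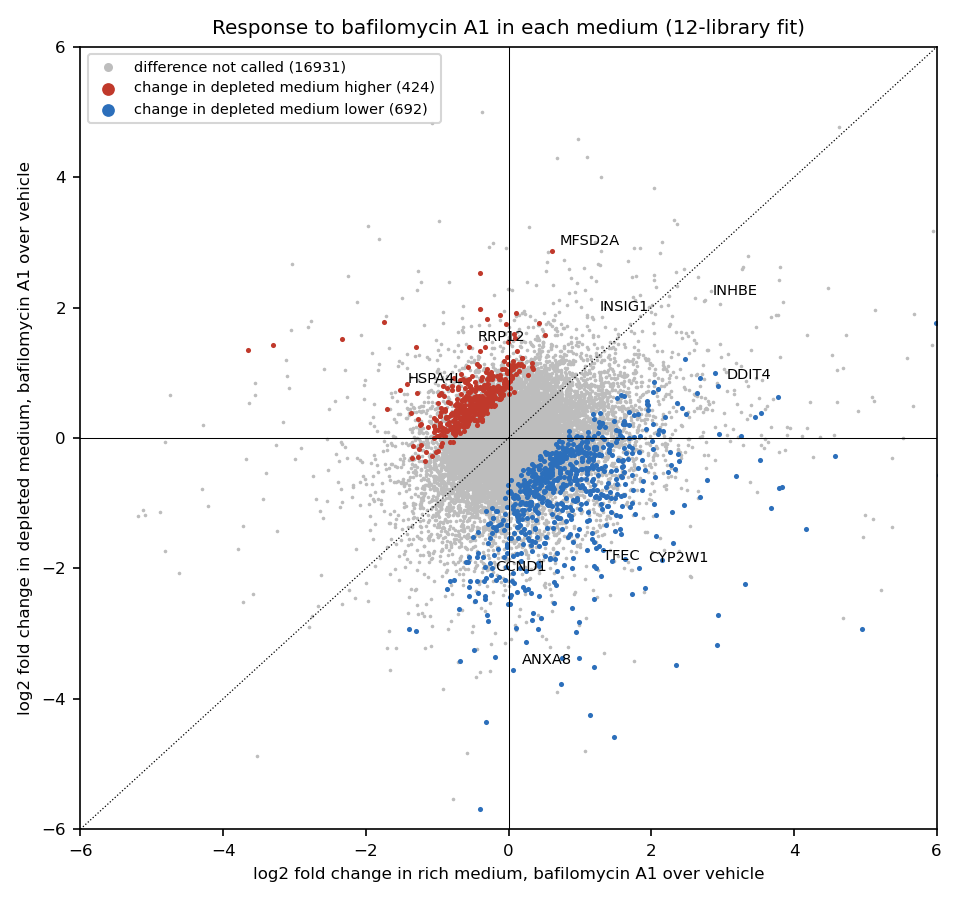
Log2 fold change of bafilomycin A1 over vehicle in depleted medium (vertical axis) against that in rich medium (horizontal axis) in the 12-library fit, 1 point per gene, with 22 genes outside the axes. Coloured points are genes whose change in depleted medium was higher (red, 424) or lower (blue, 692) than in rich medium, and the dotted line marks equal changes.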

How the data were processed

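RNA from 6 libraries in depleted medium (3 with bafilomycin A1, 3 with vehicle) was analysed. The 6 rich-medium libraries were added for the interaction and for the fit of all 12 libraries. The authors deposited estimated counts and TPM per gene for each library, per the file headers, and a series-wide table of whole-number counts. DRAGEN and GRCh38 are named in the submitters' processing notes, while for their settings, the annotation release and strandedness the sources used here give nothing. TPM is scaled to a library's total per length and served for levels only.

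Estimated counts were rounded to whole numbers, since the count model needs them, and scaled by TMM. Genes were kept by edgeR's filter (minimum count 10, minimum total 15) and tested with edgeR's robust quasi-likelihood test with Benjamini-Hochberg adjustment, called under 0.05, on the 6 libraries alone (4 residual degrees of freedom). The interaction used all 12 libraries (8 degrees of freedom). SEs were the log2 fold change over the root of F. The versions were R 4.3.3, edgeR 4.0.16 and DESeq2 1.42.0. The steps for the 6 libraries were tested on simulated data of 16853 genes, in which 100 genes were changed 4-fold and another 100 by less. They recovered 88% of the genes changed 4-fold and 59% of those changed by less. False calls stood at 8.7%, above the nominal level of the 0.05 threshold. Far fewer genes were changed there than were called here, so these shares need not carry over to the real libraries. Precision is limited by the number of libraries and, for scarce genes, by counts.

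The members and gene lists were chosen with earlier results of these data known. Named genes were the 15 largest rises and 15 deepest falls in genes called with at least 5 CPM without overlap between groups (leaving out clone, locus, small RNA, antisense and pseudogene names), the 5 most abundant called genes by TPM in each direction, up to 4 called members of at least 1 CPM per list, a preset panel, and 5 genes in each direction of the interaction. Promoters were the called members of the sterol lists and of the autophagy and lysosome lists with the largest changes that held a searched motif, and 4 are printed. Gene symbols matched RefSeq for 51493 of 54553 genes. Alternatives were the DESeq2 test, its size factors alone, no filter on low counts, all 12 libraries, a replicate block, offsets against the trend with gene length, the series-wide table, leaving out mitochondrial, ribosomal and small RNA genes, a fold minimum of 1.5, and each library left out in turn. Some genes that the naming rule selects are not reported here.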

Additional observations from a re-analysis of the deposited data

Results flagged for a closer look

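Responses to bafilomycin A1 that differed between depleted and rich medium by the interaction in the 12-library fit (edgeR's quasi-likelihood test, adjusted p at most 0.046) are listed here for 59 genes named in the text. Values are the log2 fold change in depleted medium less the rich-medium one. The change was higher in depleted medium for 18 genes, DDN (2.39), HSPA4L (2.27), RNR2 (2.27), MFSD2A (2.26), FJX1 (2.14), POLR3G (1.98), RRP12 (1.95), AEN (1.65), GCLM (1.57), MYBBP1A (1.55), VARS1 (1.52), POLR1B (1.48), NPRL2 (1.33), PSMD12 (1.33), PSMC4 (1.11), ATF6 (1.07), ATF3 (1.07) and GCLC (0.69). It was lower in depleted medium for 41 genes. These were NPC2 (-0.82), JDP2 (-0.88), HNF4A (-0.99), AMOTL2 (-1), CTSB (-1.04), HFE (-1.11), BCL2L1 (-1.19), HEPH (-1.24), PROM1 (-1.32), SLC29A3 (-1.42), CHI3L1 (-1.54), SLC40A1 (-1.55), SPRY1 (-1.56), APOA1 (-1.56), PRSS35 (-1.66), SLC2A3 (-1.66), EFR3B (-1.74), CCND1 (-1.83), CCDC80 (-1.86) and SCARA3 (-1.87), together with CA12 (-1.91), KCNJ16 (-1.93), TTR (-2), OLFML3 (-2.04), AFP (-2.1), TNFAIP2 (-2.13), BCL2 (-2.13), DDIT4 (-2.13), CLDN2 (-2.48), CPA6 (-2.49), LRRC7 (-2.56), SIGLEC6 (-2.57), PDGFRB (-2.69), ATP6V1C2 (-2.76), ALPP (-2.82), LCT (-2.88), TFEC (-3.17), PTH1R (-3.34), ANXA8 (-3.62), CYP2W1 (-3.83) and ANXA8L1 (-5.3). Without rich-medium vehicle replicate 1 and rich-medium bafilomycin A1 replicate 3, 42 of the 59 differences were called. With 1 library left out, 35 to 57 of them were called, with 35 without depleted-medium bafilomycin A1 replicate 3, 36 without depleted-medium bafilomycin A1 replicate 2 or depleted-medium vehicle replicate 1, and 57 without rich-medium vehicle replicate 2. ANXA8 and ANXA8L1 are near-identical copies whose reads cannot be assigned with certainty.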

How the results depend on the processing

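The main counts of 2067 genes higher and 2192 lower with bafilomycin A1 kept within 1.5 times under the DESeq2 test, its size factors alone, no filter on low counts, offsets against the trend with gene length, the series-wide table and the exclusion of mitochondrial, ribosomal and small RNA genes. They were 992 and 1066 in the fit of all 12 libraries and 202 and 386 with a fold minimum of 1.5. Leaving out 1 library gave 1152 to 1774 higher and 1331 to 1917 lower. The replicate block gave 3222 and 3507, and the block with length offsets 3436 and 3303. Libraries with the same replicate number deviated together with correlations of 0.0883, 0.277 and 0.312, so 1 pair was under 0.1 and the numbers were not taken to pair the samples. Every library correlated best with its own number. The second principal component, with 19.6% of the variance, also ordered the replicates alike in both groups. It stood at 5.55, 29.8 and -22.7 with bafilomycin A1 and 1.86, 27.3 and -41.7 with vehicle. Both are hints of pairing from the data and not from the design. The 1116 interaction calls became 2093 with the DESeq2 test and 1792 with no filter, and 393 to 1844 with 1 library left out. The cause of these shifts was not tested.

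Among uncalled genes near 0 the sign of the log2 fold change turned with 1 library left out. The values ran from -0.043 to 0.103 for ASNS, from -0.21 to 0.079 for ATF4, from -0.02 to 0.341 for FTH1, from -0.081 to 0.163 for PMVK, from -0.057 to 0.123 for SREBF2 and from -0.322 to 0.199 for TM7SF2. With length offsets it was -0.003 for SREBF2 and 0.017 for TM7SF2. Differences in scarce genes, such as the subunits ATP6V1B1 and ATP6V0A4, are limited by their counts.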

Other observations

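Protein turnover, immune and growth factor genes were also examined. The counts of these lists stand beside 12.1% higher and 12.8% lower over all genes tested. Of 31 proteasome subunits 2 rose and 1 fell with bafilomycin A1, the rises being in the regulatory particle genes PSMC4 and PSMD12 (log2 fold changes 0.79 and 0.78). PSMC4 was at 109, 114 and 130 CPM with bafilomycin A1 and 66.9, 65.1 and 71.2 CPM with vehicle. Of 17 cytosolic heat shock chaperones tested out of 18, 2 rose and 2 fell, and HSPA8, the constitutive HSC70 chaperone, was at 855, 651 and 787 CPM with bafilomycin A1 and 1280, 1260 and 1430 CPM with vehicle (-0.79). With 1 library left out, 0 to 2 of these chaperones rose, with none without bafilomycin A1 replicate 3 or vehicle replicate 1, and 0 to 2 proteasome subunits fell, with none except 2 without bafilomycin A1 replicate 3. Of 49 nuclear genes of the respiratory chain 1 rose and 4 fell. Of 18 fatty acid oxidation genes tested out of 20, 2 rose and 2 fell (11.1% each). None of 13 mitochondrially encoded mRNAs was called in either direction by edgeR's quasi-likelihood test. The respiratory chain count of 4 falling became 0 without bafilomycin A1 replicate 2 or vehicle replicate 3, 2 without vehicle replicate 2 and 5 without bafilomycin A1 replicate 3, and the 1 that rose was lost without vehicle replicate 1. No fatty acid oxidation gene rose without bafilomycin A1 replicate 1 or 2 or vehicle replicate 1 or 2, and 3 rose without vehicle replicate 3. None of them fell without bafilomycin A1 replicate 2 or 3 or vehicle replicate 1 or 3, and 3 fell without bafilomycin A1 replicate 1. Without vehicle replicate 3, 2 mitochondrially encoded mRNAs fell.

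Of 24 interferon and antigen presentation genes tested out of 29, 3 rose and 6 fell, and 2 to 6 fell with 1 library left out, the fewest without vehicle replicate 2 and 3 without bafilomycin A1 replicate 3 or vehicle replicate 3. ISG15, a ubiquitin-like antiviral protein gene, rose by 0.99, a call not made with all 12 libraries (adjusted p = 0.062), and TAP2, a peptide transporter for antigen presentation, was at 8.30, 9.08 and 6.52 CPM with bafilomycin A1 and 13.6, 15.3 and 13.7 CPM with vehicle (-0.83). Of 16 NF-kB and chemokine genes tested out of 23, 2 rose and 4 fell, including TNFAIP2 (-2.18) and the chemokine gene CXCL16 (-0.97), and none rose without vehicle replicate 1 or 3 and 1 without any other single library. Of 23 ERK output genes tested out of 24, 3 rose and 5 fell, including the ephrin receptor gene EPHA4 (-1.13) and the ERK inhibitor SPRY1 (-1.02). Of 19 p53 targets tested out of 20, 7 rose and 2 fell, led by the exonuclease gene AEN, at 45.3, 47.3 and 41.9 CPM with bafilomycin A1 and 20.2, 25.6 and 22.9 CPM with vehicle (0.97). The p53 counts were 3 rising and none falling without vehicle replicate 1, and 4 rising without bafilomycin A1 replicate 3.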
